A study of Rattus norvegicus with 12 samples.

Results

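Glutamate is the main excitatory transmitter of the brain, and 10 genes for its receptors were followed across 12 rat brain libraries. They were the 10 rows of the deposited count table named Gria1, Gria2, Gria3, Gria4, Grin1, Grin2a, Grin2b, Grm2, Grm3 and Grm5, out of 17337 rows, and all 10 were among the 12850 genes with enough reads to be tested. The animals were male Sprague-Dawley rats labelled postnatal day 60, with 3 libraries in each of 4 groups, and the design text gives 3 rats per group. The groups here called AAV-VEGFC and AAV-GFP had bile duct ligation and an adeno-associated virus, coding for vascular endothelial growth factor C or for green fluorescent protein, injected into the cisterna magna at 1.5e+11 genome copies in 20 µl per rat, an exponent that the label prints without its superscript. The BDL group had ligation with no vector named in its labels, and the sham group had the control operation. Ligation, which blocks bile outflow and leads to cirrhosis, had lasted 4 weeks in all 3 ligated groups. It is used to study hepatic encephalopathy, the brain disorder of liver failure. The labels used here name neither the promoter of each vector nor the time of injection.

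Glutamate acts through ion channels and through receptors coupled to G proteins. AMPA receptors are channels assembled from GluA1 to GluA4, coded by Gria1 to Gria4, and carry most fast excitatory current; the GluA2 subunit, in its RNA-edited form, keeps calcium out of the channel. NMDA receptors pair the obligatory GluN1 subunit (Grin1) with GluN2 subunits such as GluN2A (Grin2a) and GluN2B (Grin2b), pass calcium and drive synaptic plasticity, and the share of GluN2A over GluN2B grows as forebrain synapses mature. Among the metabotropic receptors, mGlu5 (Grm5) couples to phospholipase C, whereas mGlu2 (Grm2) and mGlu3 (Grm3) lower cyclic AMP, mGlu2 mainly on neurons and mGlu3 on neurons and astrocytes. Ammonia that the failing liver does not clear alters glutamate handling in the brain, and glutamate receptors have long been studied in hepatic encephalopathy for that reason.

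Library totals ran from 40296297 to 51669067 counts. Levels below are CPM, read counts scaled to library size with TMM factors, which do not correct for transcript length, so levels are compared between libraries and not between genes. The series describes the tissue as middle brain. Th, the dopamine synthesis enzyme that defines midbrain dopamine neurons, was near 0 at 0.652 to 1.70 CPM, whereas Slc17a7, which loads glutamate into vesicles in cortical neurons, stood at 1249 to 2029 CPM. Of 8 midbrain monoamine markers found in the files, the summed level was 6.10 to 11.1 CPM per library, against 2968 to 4337 CPM for 9 markers of cortex and hippocampus excitatory neurons. In bulk tissue, fewer cells of a type and less RNA per cell cannot be told apart. Several libraries stood apart. AAV-VEGFC 1 correlated least with the other libraries on average (r = 0.968). It had the highest summed astrocyte markers (11506 CPM, against 6153 to 8420 CPM in the other 11) and oligodendrocyte markers (19155 CPM, against 11381 to 15115 CPM). Its summed markers of neurons in general were the lowest (7508 CPM, against 8389 to 9762 CPM). Not all of these neuron markers were low there: Snap25 (2268 CPM) and Syt1 (490 CPM) were the lowest of all 12 libraries, but Uchl1 (977 CPM) was the highest. AAV-GFP 1 held 86.4 CPM of hypothalamus and pituitary markers, and sham 2 held 287 CPM of choroid plexus markers. AAV-VEGFC 3 held 58.1 CPM of the hypothalamus and pituitary markers, against 2.48 to 13.4 CPM in the libraries other than it and AAV-GFP 1. In AAV-GFP 1 these were mostly the hypothalamic hormone genes Oxt (47.8 CPM) and Avp (32.8 CPM). In AAV-VEGFC 3 they were mostly the pituitary hormone genes Gh1 (27.8 CPM) and Prl (25.7 CPM). AAV-VEGFC 3 also had the highest sum of striatal neuron markers. Rn18s, an 18S ribosomal RNA, took 0.430% to 1.16% of reads in the 6 libraries with a vector and 0.137% to 0.306% in the 6 without.

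Across the receptor genes, fold changes of BDL over sham lay between -0.19 and 0.16 and none passed the test. Gria2 was lower with a vector, most with AAV-VEGFC, and its fall in AAV-VEGFC against BDL was the 1 difference among the 10 genes that passed the test, where 9.93% of all genes passed. Grin2b was higher than in BDL rats in 5 of the 6 libraries with a vector, but libraries of a group spread widely and neither difference passed. Tests are edgeR quasi-likelihood tests of all 12850 genes with Benjamini-Hochberg adjustment and a threshold of 0.05, fold changes are on the log2 scale ± SE, and intervals are 95% intervals of the log2 fold change.

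**Figure D1:**
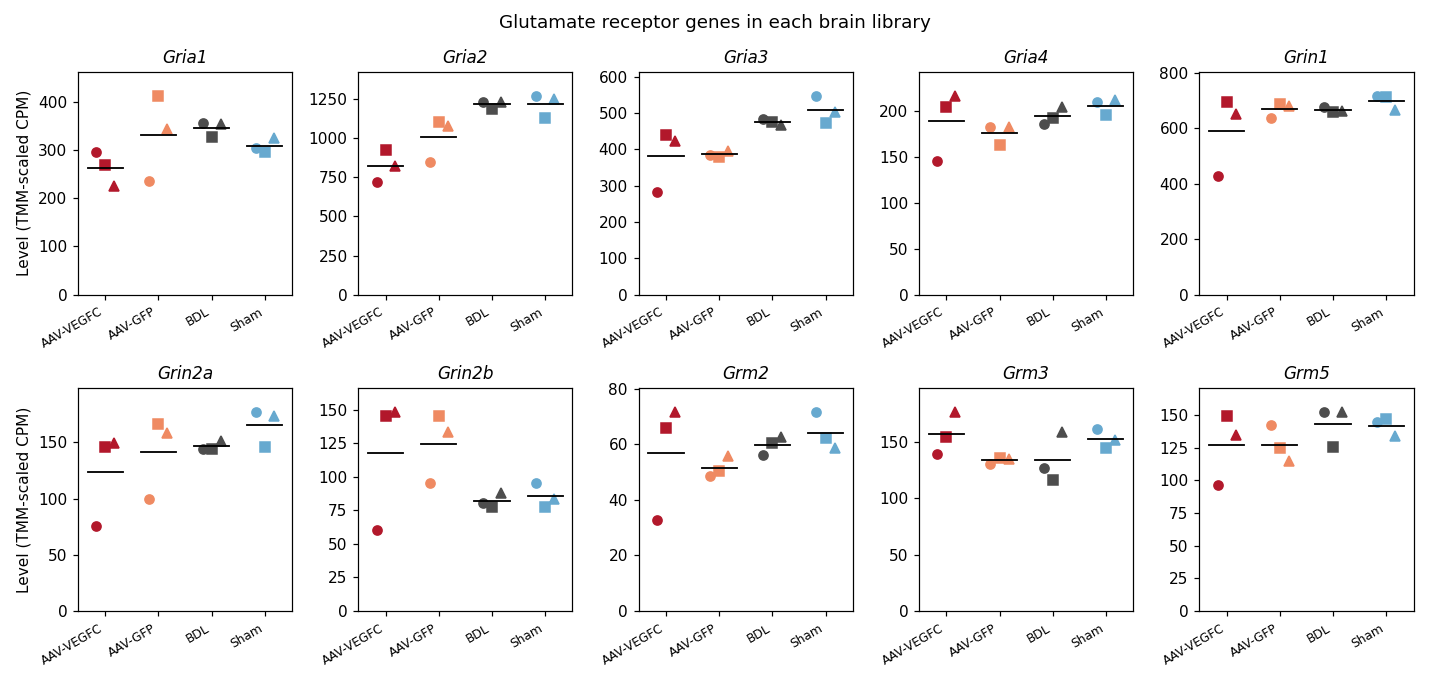
TMM-scaled CPM of the 10 receptor genes in each of 12 libraries (circle, square and triangle for replicates 1, 2 and 3; black line, group mean), by group. All 6 vector libraries lay below all 6 others for Gria2 and Gria3, and AAV-VEGFC 1, the circle at the left of each panel, was the lowest library for 8 of 10 genes.

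Gria2, for the AMPA subunit that sets calcium permeability, read 719, 922 and 823 CPM in AAV-VEGFC libraries 1, 2 and 3, and 845, 1104 and 1074 CPM in AAV-GFP libraries 1, 2 and 3. It read 1234, 1185 and 1233 CPM in BDL libraries and 1270, 1128 and 1253 CPM in sham libraries. The means stood in the order AAV-VEGFC (821 ± 101 CPM), AAV-GFP (1008 ± 142 CPM), then BDL (1217 ± 28.0 CPM) and sham (1217 ± 77.6 CPM) (SD, n = 3 each). All 6 libraries with a vector were below all 6 without, while the AAV-VEGFC and AAV-GFP ranges overlapped. Gria2 fell in AAV-VEGFC against BDL rats, with a log2 fold change of -0.57 ± 0.11 (interval -0.81 to -0.32, adjusted p = 0.00944, edgeR). Against BDL, the AAV-GFP difference was -0.27 ± 0.11 and did not pass (interval -0.52 to -0.03, adjusted p = 0.195). Between AAV-VEGFC and AAV-GFP it was -0.30 ± 0.11, with an unadjusted p of 0.0230 by edgeR and an adjusted p = 0.948. The BDL against sham value was -0.00 ± 0.11, with an interval from -0.25 to 0.25. Over 21 alternative settings the AAV-VEGFC against BDL difference stayed between -0.66 and -0.48 and passed in 20, leaving out each library in turn included. The exception was the fit of these 6 libraries alone (adjusted p = 0.0523 by edgeR). Among the 20, the threshold of 0.1 reused the main fit and could not lose the call. Leaving out a sham or AAV-GFP library kept all 6 compared libraries. Without AAV-VEGFC 1, AAV-GFP 1 and sham 2 the difference was -0.48 (adjusted p = 0.000336, edgeR), and without AAV-VEGFC 3 it was -0.57 (adjusted p = 0.0292, edgeR).

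Gria3, for the GluA3 subunit that joins GluA2 in many forebrain receptors, read 284, 440 and 423 CPM in AAV-VEGFC libraries, 385, 380 and 396 CPM in AAV-GFP libraries, 482, 476 and 466 CPM in BDL libraries, and 548, 472 and 504 CPM in sham libraries. As for Gria2, no library with a vector reached the lowest library without one. Of all tested genes 10.4% were lower in this way in the 6 vector libraries and 7.92% were higher. The fold change did not pass in AAV-VEGFC against BDL (-0.31 ± 0.13, adjusted p = 0.151) or in AAV-GFP against BDL (-0.29 ± 0.13, adjusted p = 0.244, edgeR). Leaving out AAV-VEGFC 1 changed that: the AAV-GFP against BDL value then was -0.29 with an adjusted p = 0.00368, while the AAV-VEGFC against BDL value was -0.14 with an adjusted p = 0.138. The AAV-GFP difference thus passed or not with a library of another group, and the AAV-VEGFC value was more than 1.5 times smaller without that library.

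Gria1, for the subunit whose traffic into synapses accompanies plasticity, was the AMPA gene that varied most within the AAV-GFP group. It read 296, 268 and 225 CPM in AAV-VEGFC libraries and 235, 413 and 345 CPM in AAV-GFP libraries, against 357, 326 and 353 CPM in BDL libraries and 304, 296 and 326 CPM in sham libraries. The 3 AAV-VEGFC libraries were below the 3 BDL libraries and the AAV-GFP libraries lay on both sides of them. Within both vector groups, 9 summed markers of cortex and hippocampus excitatory neurons ran in the same order as Gria1. They read 3617, 3555 and 3320 CPM in AAV-VEGFC libraries and 2968, 4337 and 3996 CPM in AAV-GFP libraries. Their part in the Gria1 values was not tested. The AAV-VEGFC against BDL difference of -0.39 ± 0.17 did not pass (interval -0.76 to -0.02, adjusted p = 0.149); it passed without AAV-GFP 1 (adjusted p = 0.0354) and without AAV-VEGFC 1, AAV-GFP 1 and sham 2 (-0.48, adjusted p = 0.00731, edgeR). The 3 BDL libraries were also just above the 3 sham libraries, at a log2 fold change of 0.16 ± 0.17 that did not pass (interval -0.21 to 0.53). Gria1 was the 1 member of 10 whose BDL and sham libraries did not overlap, where 12.6% of all tested genes were higher in this way. Between AAV-VEGFC and AAV-GFP the Gria1 value was -0.33 ± 0.17, with an adjusted p = 0.948 by edgeR. That value was -0.53 without AAV-GFP 1 (adjusted p = 0.130) and -0.14 without AAV-GFP 2, whose Gria1 levels were the lowest and the highest of the AAV-GFP group.

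Gria4, for the fast GluA4 subunit typical of some interneurons, averaged 188 ± 37.9 CPM in AAV-VEGFC, 176 ± 11.2 CPM in AAV-GFP, 194 ± 9.73 CPM in BDL and 205 ± 8.73 CPM in sham libraries (SD, n = 3 each). The order was sham, BDL, AAV-VEGFC and AAV-GFP, and no neighbouring pair tested here differed beyond its spread. The 3 AAV-GFP libraries lay below the 3 BDL libraries, at 163 to 182 CPM against 185 to 204 CPM. Its lowest library was AAV-VEGFC 1 at 145 CPM, beside 204 and 216 CPM in the other AAV-VEGFC libraries. None of the 4 comparisons passed, with fold changes from -0.14 (AAV-GFP against BDL) to 0.10 (AAV-VEGFC against AAV-GFP). Without AAV-VEGFC 1, Gria4 was 0.26 in AAV-VEGFC against AAV-GFP (adjusted p = 0.0981, edgeR), and AAV-VEGFC against BDL turned to 0.12, against -0.04 with all libraries.

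The make-up of the AMPA genes can be read within a library, where library scaling cancels. Gria2 gave 49.8%, 50.3% and 48.8% of the reads of the 4 Gria genes in AAV-VEGFC libraries and 51.3%, 53.6% and 53.8% in AAV-GFP libraries. It gave 54.6%, 54.4% and 54.6% in BDL libraries and 54.5%, 54.0% and 54.6% in sham libraries. The share averaged 49.6% ± 0.751 in AAV-VEGFC, 52.9% ± 1.38 in AAV-GFP, 54.6% ± 0.153 in BDL and 54.4% ± 0.348 in sham libraries (SD, n = 3 each), and the AAV-VEGFC libraries overlapped with none of the other 9. AAV-VEGFC 1, which had the lowest Gria2 level, lay between the other AAV-VEGFC libraries in this share. Gria4 made up 11.3% ± 1.39 of the reads in AAV-VEGFC, 9.35% ± 1.58 in AAV-GFP, 8.69% ± 0.443 in BDL and 9.18% ± 0.180 in sham libraries. These shares are of reads, which also depend on transcript length, and they were not tested, since the genes were chosen with results of these data known. How many other gene shares set the AAV-VEGFC libraries apart from the other 9 was not counted.

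Among the NMDA receptor genes, Grin1, for the subunit that every NMDA receptor needs, varied little outside AAV-VEGFC 1. It read 426, 694 and 652 CPM in AAV-VEGFC libraries, 639, 687 and 681 CPM in AAV-GFP libraries, 677, 659 and 663 CPM in BDL libraries, and 717, 711 and 667 CPM in sham libraries. Apart from AAV-VEGFC 1, all libraries lay between 639 and 717 CPM. The AAV-GFP against BDL fold change was 0.01 ± 0.14 (interval -0.30 to 0.31) and the AAV-VEGFC against BDL value was -0.17 ± 0.14 (interval -0.48 to 0.14, adjusted p = 0.450, edgeR), which became 0.01 without AAV-VEGFC 1. AAV-VEGFC against AAV-GFP was -0.18 ± 0.14 with all libraries and 0.01 without AAV-VEGFC 1.

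Grin2b, for the GluN2B subunit that prevails in the young forebrain, read 60.1, 145 and 148 CPM in AAV-VEGFC libraries and 95.1, 145 and 134 CPM in AAV-GFP libraries. In BDL libraries it read 80.3, 77.7 and 87.8 CPM, and in sham libraries 95.7, 77.8 and 83.2 CPM. Of the vector libraries, AAV-VEGFC 2 and 3 and AAV-GFP 2 and 3 were well above every library without a vector, AAV-GFP 1 lay just under the highest sham library, and AAV-VEGFC 1 was the lowest of all 12. The fold changes over BDL were 0.61 ± 0.28 in AAV-GFP (interval -0.00 to 1.22, adjusted p = 0.244) and 0.53 ± 0.28 in AAV-VEGFC (interval -0.08 to 1.14, adjusted p = 0.230), and neither passed. Without AAV-VEGFC 1 both passed, and without AAV-VEGFC 1, AAV-GFP 1 and sham 2 they were 0.76 (adjusted p = 0.000267) and 0.84 (adjusted p = 0.000153, edgeR), an alternative chosen after seeing the data. Without AAV-VEGFC 3 the AAV-VEGFC value was 0.33 (adjusted p = 0.489, edgeR). Grin2b stood at -0.06 ± 0.28 in BDL against sham (interval -0.67 to 0.55).

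Grin2a, for the GluN2A subunit of mature synapses, read 75.1, 146 and 149 CPM in AAV-VEGFC libraries, 99.3, 167 and 158 CPM in AAV-GFP libraries, 144, 144 and 151 CPM in BDL libraries, and 177, 145 and 173 CPM in sham libraries. The same AAV-VEGFC 1 and AAV-GFP 1 libraries were the lowest of their groups for both GluN2 genes. In none of the 4 comparisons did Grin2a pass, with values from -0.25 ± 0.24 (AAV-VEGFC against BDL) to -0.05 ± 0.24 (AAV-GFP against BDL). The -0.25 rested on AAV-VEGFC 1: without that library the value was 0.01 against BDL and 0.06 against AAV-GFP, where it was -0.20 with all libraries. Without AAV-VEGFC 1, AAV-GFP 1 and sham 2 the AAV-GFP value turned to 0.14 (adjusted p = 0.0347) and the BDL against sham value was -0.26 (adjusted p = 0.0276, edgeR).

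The ratio of the GluN2 genes within a library varied less than either level in both vector groups. Grin2b gave 0.800, 0.998 and 0.997 reads per Grin2a read in AAV-VEGFC libraries and 0.957, 0.872 and 0.845 in AAV-GFP libraries. It gave 0.556, 0.539 and 0.582 in BDL libraries and 0.541, 0.535 and 0.480 in sham libraries. The 6 libraries with a vector spanned 0.800 to 0.998 and the 6 without spanned 0.480 to 0.582, so the ranges did not meet, and the AAV-GFP 1 and AAV-VEGFC 1 libraries, low in both genes, fell within the vector range. AAV-VEGFC averaged 0.931 ± 0.114 and AAV-GFP 0.892 ± 0.0585, against 0.559 ± 0.0216 in BDL and 0.519 ± 0.0335 in sham (SD, n = 3 each). Grin2b per Grin1 read parted the same 6 libraries from the other 6, at 0.141 to 0.228 with a vector and 0.109 to 0.133 without, whereas Grin2a per Grin1 read overlapped, at 0.156 to 0.243 with a vector and 0.205 to 0.260 without. These ratios were not tested. How many other gene ratios part these libraries was not counted. Of single tested genes, 7.92% lay higher in the 6 vector libraries without overlap and 10.4% lay lower. The share of Rn18s reads parts the same libraries, and so do 8 endothelium markers, which summed to 464 to 503 CPM in AAV-VEGFC and 440 to 480 CPM in AAV-GFP, against 277 to 372 CPM in BDL and 248 to 285 CPM in sham libraries; the part of either in the receptor values was not tested. Nor was that of 9 striatal neuron markers, whose sum varied with the library, from 779.8 to 1860.0 CPM in AAV-VEGFC, 362 to 1509.5 CPM in AAV-GFP, 516 to 897 CPM in BDL and 541 to 1180.1 CPM in sham libraries. Batches are not named in the labels, so the virus, its injection and a batch cannot be told apart.

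**Figure D2:**
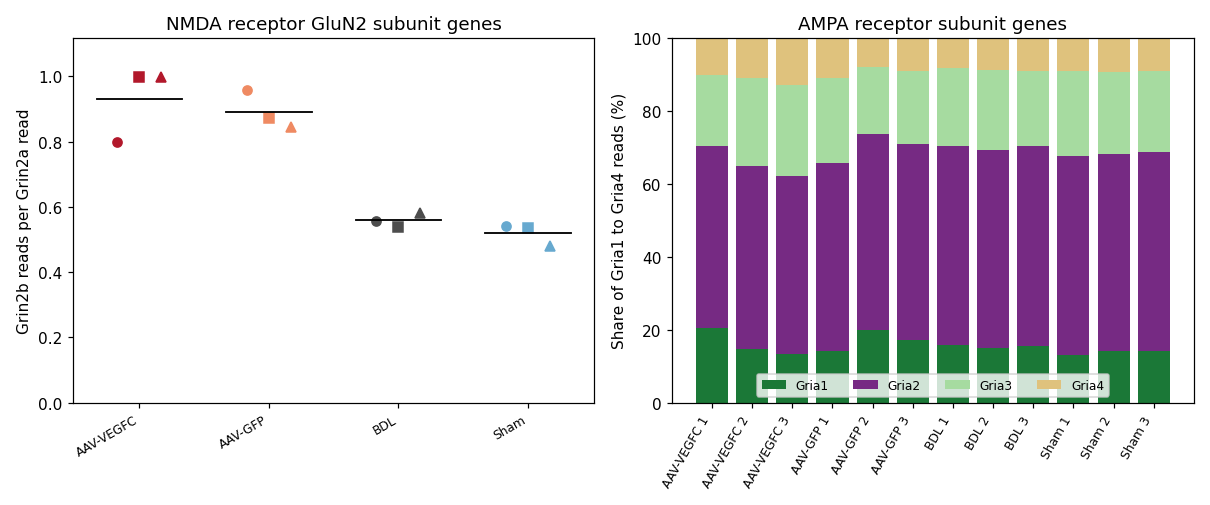
Left, Grin2b reads per Grin2a read in each library (symbols for replicates 1 to 3; line, group mean), 0.800 to 0.998 in the 6 vector libraries and 0.480 to 0.582 in the others. Right, share in percent of Gria1, Gria2, Gria3 and Gria4 in their summed reads, in which Gria2 took 48.8% to 50.3% in AAV-VEGFC libraries and 54.0% to 54.6% in BDL and sham libraries.

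None of the metabotropic genes passed in a comparison by edgeR with all libraries. Grm3, for mGlu3, read 139, 155 and 177 CPM in AAV-VEGFC libraries, 130, 136 and 135 CPM in AAV-GFP libraries, 127, 116 and 159 CPM in BDL libraries, and 162, 144 and 152 CPM in sham libraries. It was the 1 member for which the AAV-VEGFC and AAV-GFP libraries did not overlap, with AAV-VEGFC higher, as were 3.29% of all genes. The fold change of 0.23 ± 0.12 did not pass (interval -0.03 to 0.49, adjusted p = 0.948, edgeR), nor did those over BDL, of 0.23 ± 0.12 in AAV-VEGFC (adjusted p = 0.222) and -0.00 ± 0.12 in AAV-GFP (interval -0.26 to 0.26). BDL 3, at 159 CPM the highest BDL library for Grm3, moved these: without it Grm3 was 0.37 in AAV-VEGFC against BDL (adjusted p = 0.0754), 0.14 in AAV-GFP against BDL, and -0.33 in BDL against sham (unadjusted p of 0.0101 by edgeR), where it was -0.19 ± 0.12 with all libraries. Without AAV-VEGFC 3, AAV-VEGFC against BDL and against AAV-GFP were both 0.13. In AAV-VEGFC 1, where 8 members and 25.8% of all tested genes had their lowest level of all 12 libraries, Grm3 lay within the range of the others; the astrocyte markers were highest in that library, and their part in its Grm3 value was not tested.

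Grm2, for the presynaptic receptor mGlu2, read 32.6, 65.9 and 71.7 CPM in AAV-VEGFC libraries, 48.5, 50.5 and 55.9 CPM in AAV-GFP libraries, 56.3, 60.4 and 62.6 CPM in BDL libraries, and 71.6, 62.3 and 58.8 CPM in sham libraries. The 3 AAV-GFP libraries lay just under the 3 BDL libraries (-0.21 ± 0.22, adjusted p = 0.632, edgeR), and AAV-VEGFC libraries lay on both sides. Without AAV-VEGFC 1, Grm2 was 0.20 in AAV-VEGFC against BDL and 0.41 in AAV-VEGFC against AAV-GFP (adjusted p = 0.0752, edgeR), against -0.07 and 0.14 with all libraries. Grm5, for mGlu5, averaged 127 ± 27.2 CPM in AAV-VEGFC, 127 ± 13.8 CPM in AAV-GFP, 143 ± 15.2 CPM in BDL and 142 ± 6.82 CPM in sham libraries (SD, n = 3 each). No pair of groups parted for Grm5 among those compared, and its fold changes ran from -0.18 (AAV-VEGFC against BDL) to 0.02 (BDL against sham). The -0.18 rested on AAV-VEGFC 1: without it Grm5 was -0.02 in AAV-VEGFC against BDL and 0.16 in AAV-VEGFC against AAV-GFP.

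**Figure D3:**
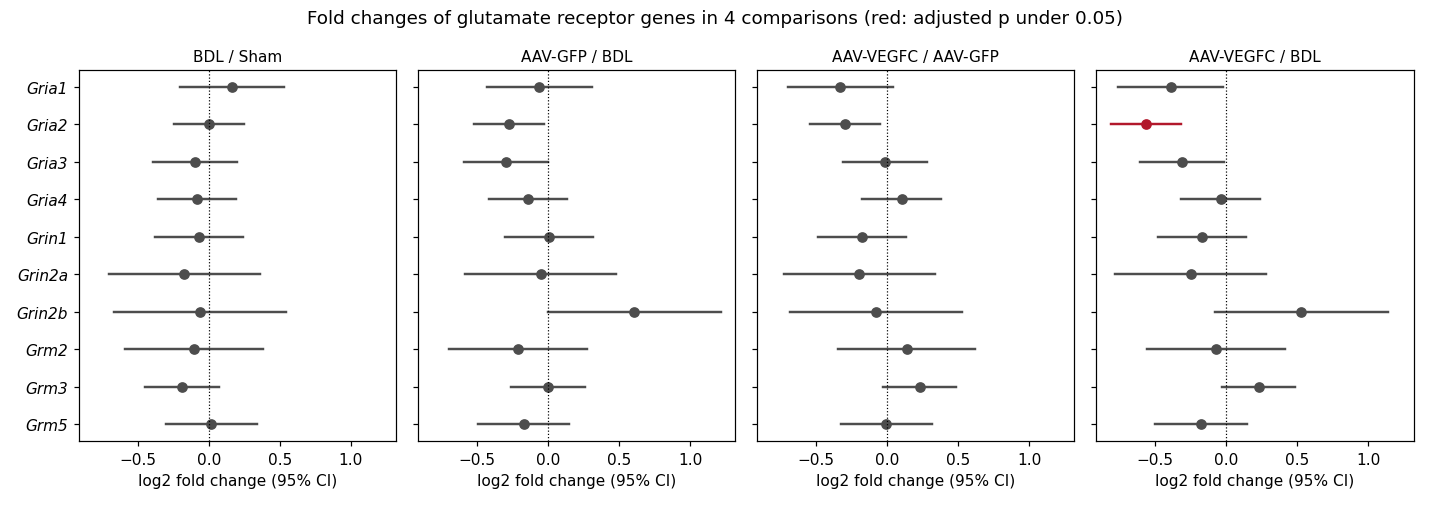
log2 fold changes with 95% intervals of the 10 receptor genes in 4 comparisons, each over the group named second above its panel. The interval of Gria2 in AAV-VEGFC over BDL, from -0.81 to -0.32, belongs to the 1 difference past an adjusted p of 0.05 (red).

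Counted over the 10 genes, BDL against sham, which asks what ligation did, had 0 of 10 past the threshold by edgeR, as did 0.109% of all genes. At an unadjusted p under 0.05 there were 0 of 10 (5.9% of all genes), by DESeq2 0 (0.84%), by limma voom 0 (2.7%) and in the compared groups alone 0 (2.63%). The median fold change of the 10 was -0.08, against 0.01 over all genes.

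AAV-GFP against BDL, which asks what the vector and its injection did, had 0 of 10 past the threshold by edgeR, where 6.19% of all genes passed, and 1 of 10 at an unadjusted p under 0.05 (20.7%). By DESeq2 0 passed (11.6%), by limma voom 4 (36.5%), in the compared groups alone 2 (16.1%) and without AAV-VEGFC 1 also 2 (22.7%). In this comparison 4 of 10 were lower without overlap (Gria2, Gria3, Gria4 and Grm2), where 20% of all genes were, and 1 of 10 was higher (Grin2b), where 18.2% were. The median was -0.10, against 0.01 over all genes.

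AAV-VEGFC against AAV-GFP, which asks what VEGFC added to the vector, had 0 of 10 past the threshold by edgeR (0.00778% of all genes), 1 of 10 at an unadjusted p under 0.05 (4.37%), 0 by DESeq2 (0.0778%), 0 by limma voom (0.00778%) and 0 in the compared groups alone (0% of all genes). The median was -0.05, against 0.01 over all genes, and turned to 0.16 without AAV-VEGFC 1. AAV-VEGFC against BDL had 1 of 10 past the threshold by edgeR, beside 9.93% of all genes, 3 at an unadjusted p under 0.05 (29.2%), 1 by DESeq2 (18.4%), 3 by limma voom (19.4%) and 0 in the compared groups alone (2.62%). Without AAV-VEGFC 1 it had 2 (17.6%) and without AAV-GFP 1 also 2 (11.4%). Gria1, Gria2 and Gria3 were lower without overlap, 3 of 10 where 18.3% of all genes were, and the median was -0.18, against 0.00 over all genes. This median rested on AAV-VEGFC 1: it was 0.01 without that library, with 6 of 10 values positive, and 0.01 without AAV-VEGFC 1, AAV-GFP 1 and sham 2. The counts past the edgeR threshold were thus near or below the background share in each comparison. Comparisons that share the BDL or the AAV-GFP libraries are not independent of each other.

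Without AAV-VEGFC 1, AAV-GFP 1 and sham 2, members called by edgeR numbered 1 of 10 in BDL against sham (1.62% of all genes), 4 in AAV-GFP against BDL (28.3%), 4 in AAV-VEGFC against AAV-GFP (9.26%) and 3 in AAV-VEGFC against BDL (24.2%), with 2 libraries left in each group that lost 1. Gria2 was lower in the 3 comparisons that involve a vector, at -0.17 in AAV-GFP against BDL (adjusted p = 0.0302, edgeR). Gria1 (-0.61, adjusted p = 0.0102) and Gria2 (-0.31, adjusted p = 0.0100) were lower in AAV-VEGFC against AAV-GFP, and Gria4 (0.29, adjusted p = 0.0323) and Grm2 (0.38, adjusted p = 0.0460) were higher. The 4 values in AAV-VEGFC against AAV-GFP rest on 2 libraries a group and did not pass with all libraries. Of the 2 AAV-VEGFC libraries kept, AAV-VEGFC 3 also stood apart in its region markers. It had the lowest Gria1 (225 CPM) and the highest Gria4 (216 CPM) and Grm2 (71.7 CPM) of all 12 libraries. Gria4 in sham 3 (211 CPM) and Grm2 in sham 1 (71.6 CPM) were close to these highest levels. The Gria2 level of AAV-VEGFC 3, at 823 CPM, was not the lowest.

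Receptor levels were also set against the neurons in each library, with 10 markers of neurons in general (among them Snap25, Syt1, Map2 and Rbfox3) as the base, a measure added after the levels were seen. Gria2 had 95.7, 94.4 and 86.7 reads per 1000 marker reads in AAV-VEGFC libraries and 98.8, 113 and 114 in AAV-GFP libraries. It had 144, 141 and 142 in BDL libraries and 135, 128 and 140 in sham libraries. On this base Gria2 in AAV-VEGFC 1 no longer lay below the other AAV-VEGFC libraries, though the base markers disagreed in that library (below). The 3 AAV-VEGFC libraries lay below the 3 AAV-GFP libraries, and all 6 lay below the BDL and sham libraries. Gria3 likewise spanned 37.8 to 45.1 reads per 1000 with a vector and 53.4 to 58.4 without. Grin1 lay at 56.8 to 74.7 with a vector and 74.6 to 80.5 without, where only AAV-GFP 1 reached the lowest library without a vector. For Grin2a the highest AAV-VEGFC library, at 15.7, was below the lowest library without a vector, at 16.5. AAV-GFP libraries lay on both sides of that value. Grin2b went the other way outside AAV-VEGFC 1, above the 10.2 of the highest library without a vector. Gria4, Grm2, Grm3 and Grm5 overlapped. Gria1 did not follow, with 39.4, 27.5 and 23.7 in AAV-VEGFC libraries against 41.6, 38.9 and 40.8 in BDL libraries. Grin2b in AAV-VEGFC 1 was the lowest of 12 on this base too, beside 14.9 and 15.6 reads per 1000 in the other AAV-VEGFC libraries. Summed neuron markers themselves lay at 7508 to 9762 CPM in AAV-VEGFC, 8552 to 9732 CPM in AAV-GFP, 8389 to 8653 CPM in BDL and 8836 to 9384 CPM in sham libraries. Snap25 alone read 2268, 3502 and 3689 CPM in AAV-VEGFC libraries and 2904, 3541 and 3552 CPM in AAV-GFP libraries. It read 2589, 2694 and 2684 CPM in BDL libraries and 3413, 3062 and 3095 CPM in sham libraries. Some base markers did not follow Snap25 in AAV-VEGFC 1. Map2 read 1506, 1337 and 1157 CPM and Uchl1 977, 887 and 826 CPM in AAV-VEGFC libraries 1, 2 and 3. Syt1 read 490, 960 and 902 CPM in the same libraries. The place of AAV-VEGFC 1 on this base can therefore depend on the markers chosen. The part of the base in these values was not tested. The share of all genes that part on this base was not counted.

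**Figure D4:**
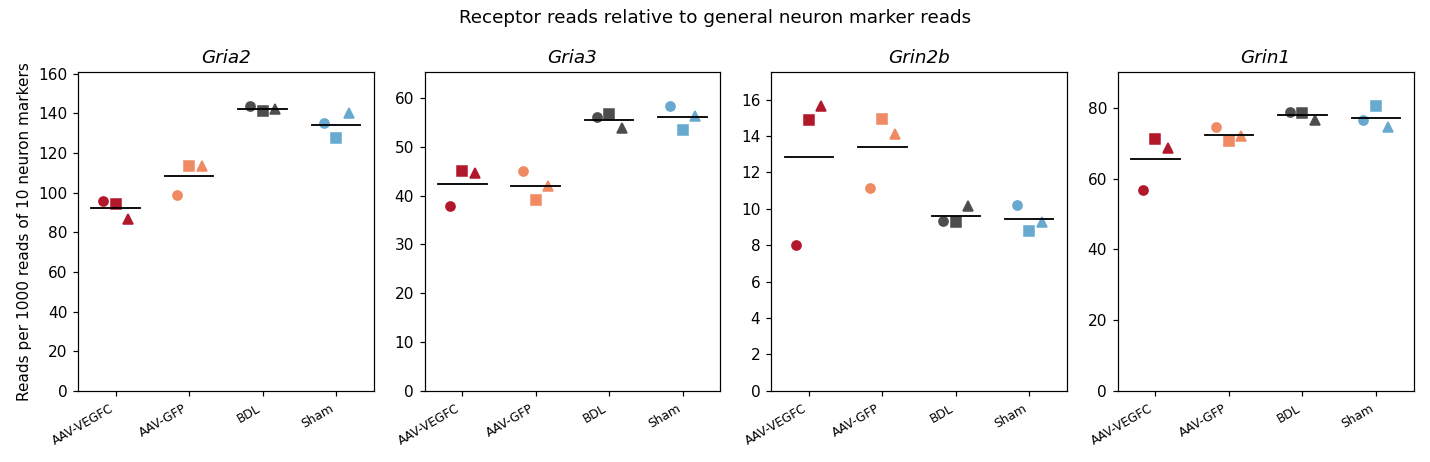
Reads of Gria2, Gria3, Grin2b and Grin1 per 1000 reads of 10 general neuron markers in each library (symbols for replicates 1 to 3; line, group mean). Gria2 lay at 86.7 to 95.7 in AAV-VEGFC, 98.8 to 114 in AAV-GFP, 141 to 144 in BDL and 128 to 140 in sham libraries.

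Other genes of glutamate signalling, on 7 lists with 88 genes of which 83 were tested, held between 0 and 7 calls in a comparison by edgeR with all libraries, and more by other fits. Percentages in parentheses are the shares of all tested genes that passed in the same way, in either direction. In BDL against sham 0 passed by edgeR (0.109%), 3 at an unadjusted p under 0.05 (5.9%), 2 by DESeq2 (0.84%) and 6 by limma voom (2.7%). In AAV-VEGFC against AAV-GFP 0 passed by edgeR (0.00778%) and 4 at an unadjusted p under 0.05 (4.37%). There 0 passed by DESeq2 (0.0778%) and by limma voom (0.00778%). In AAV-GFP against BDL 2 fell and 0 rose, and in AAV-VEGFC against BDL 6 fell and 1 rose, where 6.19% and 9.93% of all genes passed in these comparisons. In AAV-GFP against BDL 1 rose and 5 fell by DESeq2 (11.6%), and 13 rose and 13 fell by limma voom (36.5%). Without AAV-VEGFC 1, AAV-GFP 1 and sham 2, 13 rose and 19 fell in that comparison (28.3%). In AAV-VEGFC against BDL the counts were 2 and 8 by DESeq2 (18.4%), 2 and 9 by limma voom (19.4%), and 7 and 15 without those libraries (24.2%). Without them 14 rose and 13 fell in AAV-VEGFC against AAV-GFP (9.26%), and 0 rose and 4 fell in BDL against sham (1.62%). The medians of the 7 lists lay between -0.12 and 0.12 in AAV-GFP against BDL, between -0.18 and -0.00 in AAV-VEGFC against BDL, between -0.11 and -0.00 in AAV-VEGFC against AAV-GFP and between -0.09 and 0.06 in BDL against sham, with medians over all genes of 0.00 to 0.01. Among 10 tested of the other ionotropic subunits, Grik2, for the kainate receptor subunit GluK2, fell to 39.8 ± 1.32 CPM in AAV-GFP, against 54.2 ± 4.22 CPM in BDL (-0.44 ± 0.09, adjusted p = 0.0117, edgeR). It fell to 38.3 ± 4.01 CPM in AAV-VEGFC (-0.50 ± 0.09 over BDL, adjusted p = 0.00469). Grin2d, for the slow NMDA subunit GluN2D, fell in AAV-VEGFC to 11.7 ± 1.60 CPM, against 15.8 ± 1.01 CPM in BDL (-0.43 ± 0.11, adjusted p = 0.0380, edgeR). The 5 other metabotropic genes had none past the threshold in any comparison; their smallest adjusted p was 0.0545 in AAV-VEGFC against BDL.

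Of 17 tested genes for AMPA auxiliary subunits and trafficking, 2 fell in AAV-VEGFC against BDL. Shisa7, an auxiliary protein of the receptor complex, was 180 ± 21.3 CPM in AAV-VEGFC and 237 ± 8.20 CPM in BDL (-0.40 ± 0.08, adjusted p = 0.0137, edgeR). Grip1, a scaffold that binds the GluA2 tail, was 22.3 ± 3.60 CPM in AAV-VEGFC and 31.0 ± 1.26 CPM in BDL (-0.47 ± 0.12, adjusted p = 0.0317, edgeR). Of 14 tested genes for glutamate supply and uptake, Slc1a1, the neuronal glutamate transporter, fell (-0.35 ± 0.10, adjusted p = 0.0472) and Glul, the glutamine synthetase of astrocytes, rose (0.30 ± 0.08, adjusted p = 0.0394) in AAV-VEGFC against BDL. Of 8 tested genes for RNA editing and splicing, Ptbp2, a neuronal splicing repressor, fell in AAV-VEGFC (-0.42 ± 0.06, adjusted p = 0.00226) and in AAV-GFP (-0.33 ± 0.06, adjusted p = 0.0101) against BDL. The editing enzyme genes Adar and Adarb1 were on that list and did not pass. In the 17 scaffold and kinase genes and the 12 genes of metabotropic signalling 0 passed in the 4 comparisons by edgeR, with smallest adjusted p of 0.0755 and 0.162. Of these calls those of Slc1a1, Grin2d, Glul and Grip1 were lost in 13, 10, 10 and 7 of 21 alternative settings, and Shisa7 in 3, Grik2 and Ptbp2 in 1 or 2. The calls of Slc1a1, Grin2d, Glul and Grip1 were each lost without sham 1, sham 3, AAV-GFP 3 or any BDL library. Shisa7 was lost without BDL 1 or BDL 2, and Grik2 and Ptbp2 in AAV-GFP without BDL 1 or AAV-GFP 3.

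Gria2 had the smallest p of the 10 genes, and the genes most like it over the 12 libraries were sought among 11536 others with a mean of at least 1 CPM. By Pearson correlation of log2 CPM they were Ago1 (0.993), the Argonaute protein of microRNA silencing, Cpsf6 (0.971), a factor of mRNA 3′ end processing, Tsc22d2 (0.971), Rimbp2 (0.969), a presynaptic active zone protein, and Znrf2 (0.969). Because Gria2 parted libraries with and without a vector, r was also read within each 6: Ago1 had 0.994 with a vector and 0.922 without, and Rimbp2 had 0.984 with a vector and 0.364 without. These are descriptions over libraries that share depth and composition. Ago1 read 96.3, 120 and 108 CPM in AAV-VEGFC libraries, against 152, 147 and 147 CPM in BDL libraries (-0.46 ± 0.10, adjusted p = 0.0172, edgeR), a call lost without any 1 of the BDL libraries.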

How the data were processed

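Per the labels, RNA was taken with Trizol and made into TruSeq RNA libraries. The submitters' processing notes name Trimmomatic 0.36, FastQC, featureCounts, HISAT2 and the rn6 build, per the labels, but no settings, annotation or strandedness. Raw counts of reads per gene were deposited by the authors, 12 libraries in 1 table (17337 rows, of which 26 are names turned into dates). Replicates of a group differed by far more than sampling noise (chi-square per degree of freedom 11.7 to 229).

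From the deposited counts, edgeR 4.0.16 in R 4.3.3 computed TMM factors and CPM, kept genes with filterByExpr (12850) and fitted 1 quasi-likelihood model of 4 group means; SE was the fold change over the root of F. A call was an adjusted p under 0.05 (Benjamini-Hochberg). The alternative threshold of 0.1 kept this fit, so no call could be lost there. Alternatives were DESeq2 1.42.0 (its size factors in edgeR, and its own test), limma 3.58.1 voom with quality weights, other filters, a fit of only the compared groups, a block for the replicate number, a threshold of 0.1, each library left out and, chosen after seeing the data, 3 libraries left out. Same-numbered libraries were treated as unpaired. Of 3 pairs per comparison 0 had deviations from their group means correlated over 0.1, which cannot exclude a pairing or a shared batch. Named genes were all members, the genes of each list past the threshold with the smallest p, up to 4, and the 5 genes most like the member with the smallest p. Adar, Adarb1, Th, Slc17a7, Rn18s and other single marker genes were added after their values were seen. Members and lists were chosen with earlier results of these data known. The fit was first run on simulated data with the same spread in all groups and no library set apart. That run cannot show how the fit handles libraries that stand apart. Figures were drawn with matplotlib 3.10.9 (Python 3.11.15). Without strand, overlapping and antisense genes cannot be told apart.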

Additional observations from a re-analysis of the deposited data

How the results depend on the processing

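The call of Gria2 in AAV-VEGFC against BDL was lost in the fit of those 6 libraries alone, and members called there numbered 0 in that fit, 3 by limma voom, 3 without AAV-VEGFC 1, AAV-GFP 1 and sham 2 (below, the 3 libraries), and 1 to 2 with each library left out. In AAV-GFP against BDL they numbered 4 by limma voom, 2 in the compared groups alone, 4 without the 3 libraries and 0 to 2 with each left out. Without the 3 libraries they were 1 in BDL against sham and 4 in AAV-VEGFC against AAV-GFP. Over 840 member values under alternatives, no value past the threshold with all libraries changed sign; 1 that had not passed changed sign and passed (Grin2a, 0.14, AAV-GFP against BDL without the 3 libraries), 22 passed with their sign kept, and 49 in all changed sign, each from a fold change no larger than 0.25. The cause was not tested.

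Genes called over the whole table moved more. In BDL against sham they numbered 108 by DESeq2, 347 by limma voom, 332 in the compared groups alone, 23 at a threshold of 0.1, 209 without the 3 libraries and 12 to 74 with each left out (74 without AAV-VEGFC 1). In AAV-GFP against BDL these were 1485, 4687, 2023, 1302, 3646 and 386 to 2945 (2945 without AAV-VEGFC 1, 386 to 459 without a BDL library, 415 and 413 without AAV-GFP 2 and 3). In AAV-VEGFC against AAV-GFP they were 10 by DESeq2, 0 in the compared groups alone, 1193 without the 3 libraries and 0 to 22 with each left out (22 without AAV-GFP 1, 9 without AAV-VEGFC 1). In AAV-VEGFC against BDL they were 2362, 2488, 330, 2353, 3123 and 586 to 2284 (2284 and 2184 without AAV-VEGFC 1 and 2, 586 to 706 without a BDL library). With the replicate number as a block the genes called were 12, 550, 0 and 905 in these 4 comparisons, beside 14, 795, 1 and 1276 without it; the block changed the call of no member, and the numbers were not shown to pair the libraries.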
